A study of Mus musculus with 24 samples.

Results

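The integrin and laminin genes of mouse hindlimb muscle were 37 in number, out of 24016 gene symbols in an RNA sequencing table. They were chosen by name: every symbol of an integrin subunit (Itga or Itgb followed by a number or one of the letters d, e, l, m, v and x) or of a laminin chain (Lama, Lamb or Lamc followed by a number). The 26 integrin genes comprised 7 leukocyte subunits and 19 matrix subunits, and the 11 laminin genes comprised 5 alpha, 3 beta and 3 gamma chains. Muscles were taken 7 days after the femoral artery of 1 hindlimb had been ligated. The groups, each of 6 poly(A) libraries, were ischemic gastrocnemius of diabetic mice, ischemic gastrocnemius of control mice, normoxic adductor of diabetic mice and normoxic adductor of control mice. All groups had a C57BL/6 strain background and had undergone the same ligation, so none was unoperated. The diabetic mice are described as having type 2 diabetes, and the labels give no genotype, diet, age or sex and do not say which samples came from 1 animal. Gastrocnemius and adductor differ both in anatomy and in blood supply, and these cannot be told apart.

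Integrins are cell-surface receptors made of 1 alpha and 1 beta subunit, and they connect the matrix or a neighbouring cell to the cytoskeleton. The laminins are trimers of 1 alpha, 1 beta and 1 gamma chain that form the basement membrane around muscle fibres, capillaries and nerves. In muscle, alpha7 with beta1 is the main integrin that holds fibres to their laminin coat, while integrins with beta2 are found on leukocytes and serve in adhesion to vessel walls and in uptake of debris.

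Depth was between 7.13 and 15.6 M reads per library. Expression is given as RPKM (reads per kilobase of transcript per M reads), which divides each library's total among all genes. Gapdh, a glycolytic enzyme, split the libraries in a way no label explains: it lay between 677 and 1757 RPKM in a first set of 14 libraries (replicates 1 to 4 of the diabetic and 1 to 3 of the control groups) and between 0.365 and 13.7 RPKM in a second set of 10 libraries (replicates 5 and 6 of the diabetic and 4 to 6 of the control groups). Each group held libraries of both sets. Muscle fibre transcripts (Acta1, Ckm, Tnnt3, Mylpf, Pvalb, Myh4 and Myh7) summed to 17130.4 to 56056 RPKM in diabetic gastrocnemius and 13095 to 53179.6 RPKM in control gastrocnemius, against 35063 to 81229 RPKM in diabetic adductor and 44767 to 90662 RPKM in control adductor, so every library held abundant muscle fibre RNA. None of these fibre genes was called higher in gastrocnemius, and 4 of 7 in diabetic mice and 5 of 7 in control mice were called lower. Of all tested genes, 8.83% in diabetic and 8.7% in control mice were called lower.

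Most of the expressed integrin and laminin genes were higher in ischemic gastrocnemius than in normoxic adductor, in both kinds of mouse, and none differed detectably between diabetic and control mice. The leukocyte integrins Itgb2, Itgax and Itgam, the fibronectin receptor subunit Itga5 and the laminin chains Lamb1 and Lama4 showed the largest log2 differences between muscles, all above 2. Of these, Itgax passed the filter given below through gastrocnemius alone and so had to differ. Lamb2, Itgb4 and Itgb6 were not called, with log2 differences between -0.05 and 0.34. A gene was tested when it reached 1 RPKM in at least 6 of the 24 libraries, which 25 of the 37 did. Of these 25, limma called 19 higher and 0 lower in gastrocnemius of diabetic mice, where 48.1% of all 12382 tested genes were called higher and 8.83% lower. In control mice 18 were called higher and 0 lower, where 54.4% of all tested genes were called higher and 8.7% lower. The same 18 genes were called in both, and Lama2 was called in diabetic mice alone. Among the 18 are Itgax, Itgal, Itgb7 and Itgb3, which passed the filter through gastrocnemius alone and so had to differ. A call is a Benjamini-Hochberg adjusted p under 0.05 over all tested genes.

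The share of all genes called higher was itself large, and most tested genes had higher RPKM in gastrocnemius than in adductor. The median log2 difference over all tested genes was 0.55 in diabetic and 0.66 in control mice, and that over the 25 integrin and laminin genes was 1.31 and 1.51. Median-of-ratios scaling, which centres the typical gene, left 13 of the 25 higher and 1 lower in diabetic mice (27.4% and 26.2% of all genes) and 14 higher and 1 lower in control mice (28.4% and 26.5%). Quantile normalization left 13 higher and 3 lower in diabetic mice (24.5% and 28.8% of all genes) and 14 higher and 1 lower in control mice (25.5% and 28.3%). Of the 25, 20 in diabetic and 21 in control mice lay above the all-gene median. A member that passed the filter through gastrocnemius alone had to differ. There were 4 such genes, namely Itgal, Itgax, Itgb7 and Itgb3. Among the 21 that reached 1 RPKM in at least 6 adductor libraries, 15 were called higher in diabetic and 14 in control mice. The share among all genes at that adductor level was not counted, so these counts have no matched share beside them. With the replicate number as a block, 22 of 25 were called higher in each kind of mouse, where 56.7% of all genes in diabetic and 62.9% in control mice were.

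The first set of libraries alone called 20 of 25 higher and 0 lower in each kind of mouse, where 57.3% of all genes in diabetic and 59.3% in control mice were called higher. The second set alone called 14 higher and 1 lower in diabetic mice (35.2% and 13.1% of all genes) and 22 higher and 0 lower in control mice (51.3% and 12.2%).

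Individual libraries were compared as well. In diabetic mice every gastrocnemius library lay above every adductor library for 18 of the 37 genes, 13 of them tested, where 29.0% of tested genes did so. In control mice this held for 16 of the 37, 12 of them tested, where 33.3% of tested genes did so. Across both kinds of mouse, all 12 gastrocnemius libraries lay above all 12 adductor libraries for 11 genes, 9 of them tested, where 21.6% of tested genes did so. These were Itgb1, Itga7, Itga5, Itga9, Itgb3, Itgal, Itgax, Lamb1, Lamc1 and the weakly expressed Itga10 and Itga2b. Of these, Itgb3, Itgal and Itgax had passed the filter through gastrocnemius alone and so had to differ. They are also among the 13 and 12 tested genes above, as is Itgb7 in diabetic mice. The share of all genes includes genes that passed in the same way. For no member did all adductor libraries lie above all gastrocnemius libraries of the same mice.

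**Figure D1:**
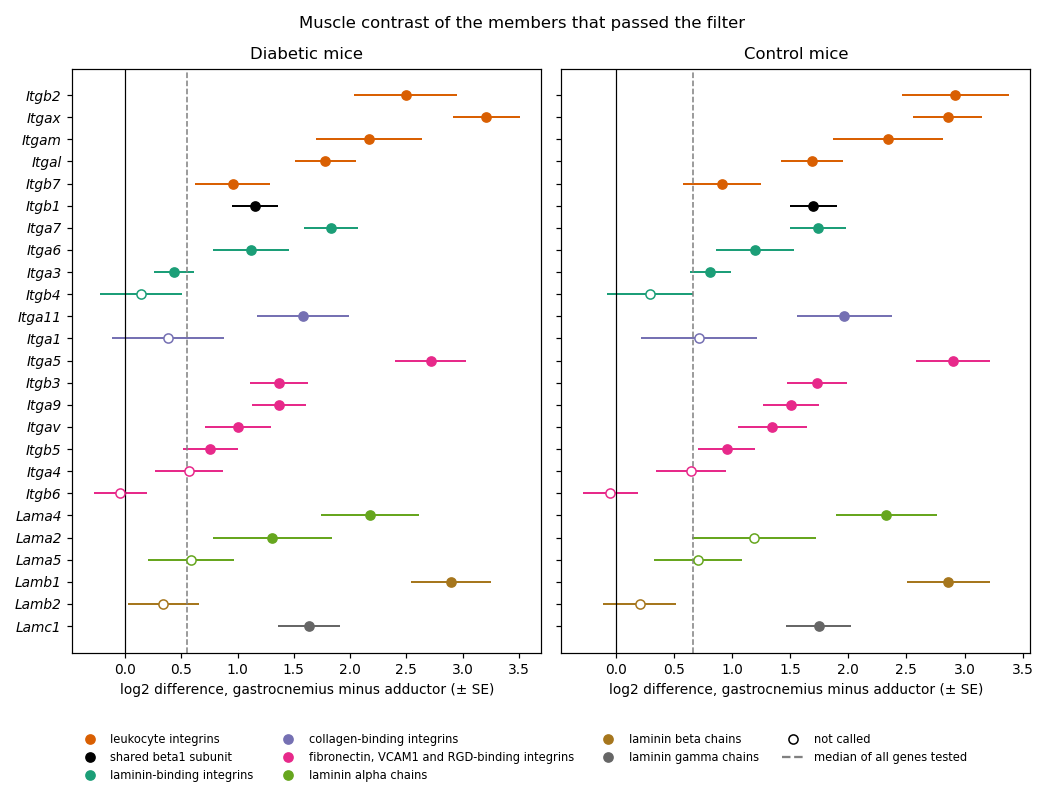
Log2 difference between gastrocnemius and adductor (x axis, with standard error) for the 25 tested integrin and laminin genes, by role, in diabetic and control mice, with the median of all tested genes as a reference line at 0.55 and 0.66. Leukocyte integrins reached 3.21 for Itgax in diabetic mice, whereas Itgb6 lay at -0.04 and -0.05. Itgax, Itgal, Itgb7 and Itgb3 passed the filter through gastrocnemius alone and so had to differ.

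The leukocyte integrins are considered first. Of 7 genes, 5 were tested. Itgb2 and Itgam reached the level for testing in both muscles and were called higher in gastrocnemius of both kinds of mouse, as were 48.1% of all tested genes in diabetic and 54.4% in control mice. The other 3, Itgax, Itgal and Itgb7, were also called higher, but they passed the filter through gastrocnemius alone and so had to differ. Where 3 values are given for a group, they are the lowest, the median and the highest of its 6 libraries.

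Itgb2 lay at 5.04, 10.8 and 26.97 RPKM in diabetic gastrocnemius and 6.73, 10.9 and 32.4 RPKM in control gastrocnemius, against 1.22, 1.74 and 2.78 RPKM in diabetic adductor and 0.346, 1.06 and 5.64 RPKM in control adductor. Itgb2 spans chromosome 10, 76993093 to 77028419 (plus strand) in mm9. It encodes the beta2 subunit that pairs with alphaL, alphaM, alphaX and alphaD. All gastrocnemius libraries were above all adductor libraries within each kind of mouse, and the one adductor library with a high value, control replicate 2 at 5.64 RPKM, exceeded the lowest diabetic gastrocnemius library. For Itgb2 the log2 difference was 2.49 ± 0.46 in diabetic mice (limma adjusted p = 7.3e-05) and 2.92 ± 0.46 in control mice (limma adjusted p = 9.1e-06). Within the first and second sets it was 2.85 and 1.78 in diabetic mice and 2.69 and 3.15 in control mice. After median-of-ratios scaling it was 1.896 in diabetic mice and 2.25 in control mice.

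Itgam was present at 3.66, 7.55 and 17.4 RPKM in diabetic gastrocnemius and 3.18, 7.38 and 26.1 RPKM in control gastrocnemius, against 0.744, 1.34 and 2.39 RPKM in diabetic adductor and 0.465, 1.21 and 4.05 RPKM in control adductor. This gene encodes alphaM, the partner of beta2 in the complement receptor of macrophages and neutrophils. In diabetic mice the muscles did not overlap, whereas in control mice adductor replicate 2, at 4.05 RPKM, lay above the lowest gastrocnemius library. Gastrocnemius minus adductor on the log2 scale was 2.17 ± 0.47 in diabetic mice (limma adjusted p = 4.5e-04) and 2.34 ± 0.47 in control mice (limma adjusted p = 1.7e-04).

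Itgax had 4.59, 5.803 and 9.89 RPKM in diabetic gastrocnemius and 2.41, 4.92 and 7.49 RPKM in control gastrocnemius, against 0.0804, 0.256 and 0.471 RPKM in diabetic adductor and 0.0231, 0.0727 and 1.39 RPKM in control adductor. It encodes alphaX, another partner of beta2, carried by dendritic cells and some macrophages. No adductor library reached the lowest gastrocnemius library in either kind of mouse, and 5 of 6 control adductor libraries were at or below 0.117 RPKM while replicate 2 stood at 1.39 RPKM. For Itgax the log2 difference was 3.21 ± 0.297 in diabetic mice (limma adjusted p = 1.8e-08) and 2.85 ± 0.297 in control mice (limma adjusted p = 5.1e-08). The diabetic value was the largest among the 25 tested genes, while in control mice those of Itgb2, Itga5 and Lamb1 were larger. Without control adductor replicate 2 the control difference was 3.14 for Itgax, 3.26 for Itgb2 and 2.59 for Itgam.

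Itgal was measured at 1.25, 1.82 and 3.58 RPKM in diabetic gastrocnemius and 0.994, 1.58 and 3.42 RPKM in control gastrocnemius, against 0.156, 0.238 and 0.351 RPKM in diabetic adductor and 0.01896, 0.225 and 0.871 RPKM in control adductor. Itgal spans chromosome 7, 134439774 to 134478651 (plus strand) in mm9. Its product alphaL forms the receptor for ICAM ligands on lymphocytes and other leukocytes. No library of either adductor group reached the lowest gastrocnemius library. For this gene the log2 difference was 1.78 ± 0.27 in diabetic mice (limma adjusted p = 6.8e-06) and 1.69 ± 0.27 in control mice (limma adjusted p = 1.0e-05). Itgb7 averaged 1.81 ± 0.901 RPKM in diabetic gastrocnemius and 2.305 ± 1.75 RPKM in control gastrocnemius, against 0.619 ± 0.126 RPKM in diabetic adductor and 0.845 ± 0.5398 RPKM in control adductor (SD, n = 6 each). The beta7 subunit pairs with alpha4 or alphaE on lymphocytes. Its log2 difference was 0.96 ± 0.33 in diabetic mice (limma adjusted p = 0.018) and 0.91 ± 0.33 in control mice (limma adjusted p = 0.021). The control call for Itgb7 was lost without gastrocnemius replicate 1 or 2 (limma adjusted p = 0.069 and 0.072) and after median-of-ratios scaling (0.36, limma adjusted p = 0.29), as was the diabetic call after that scaling (0.49, limma adjusted p = 0.14).

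Itgad and Itgae did not reach the level for testing. Itgad, for alphaD, did not exceed 0.147 RPKM in any library, and Itgae, for alphaE, did not exceed 0.348 RPKM. Itgad overlaps, on the opposite strand, the end of Cox6a2, a muscle cytochrome oxidase subunit with a mean of 803 RPKM. How strand was treated in counting is not given in the sources used here, so reads of this pair may not be separated. Of the 31-base words of its GENCODE transcripts, 26.3% occur in those of other genes, most of them in Itgax.

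**Figure D2:**
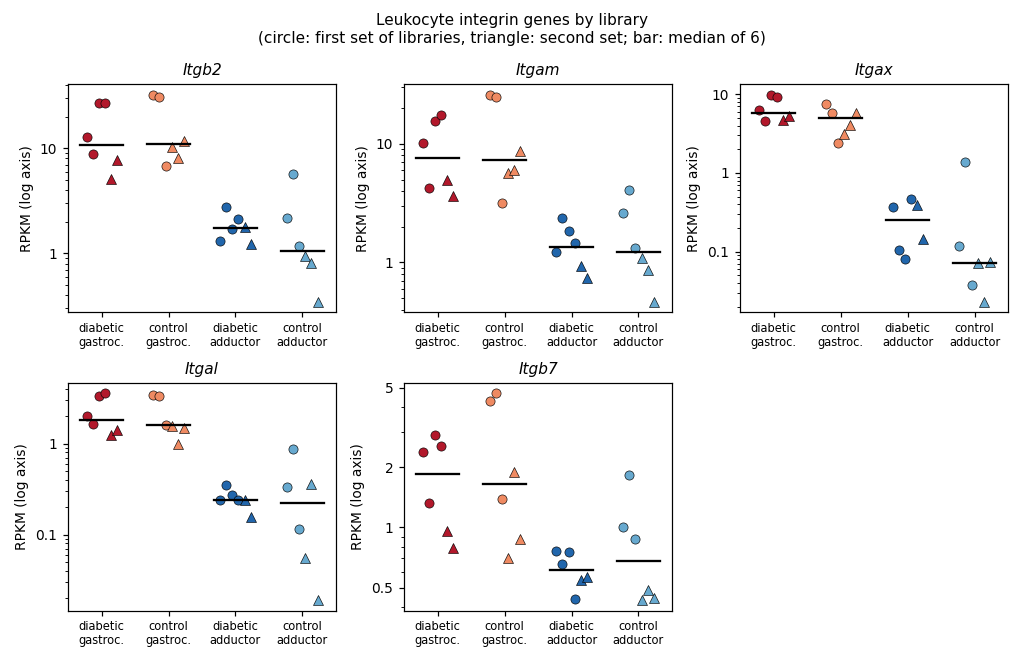
RPKM of leukocyte integrin genes in each library (log axis), by group, with circles for the first and triangles for the second set and a bar at the median of 6. Control adductor replicate 2 is the highest adductor library for Itgb2, at 5.64 RPKM, where it exceeds the lowest diabetic gastrocnemius library at 5.04 RPKM, and for Itgax, at 1.39 RPKM, where it lies below every gastrocnemius library.

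Macrophage markers were higher in gastrocnemius as well. The sum of 7 macrophage markers (Cd68, Emr1, Csf1r, Lyz2, Mrc1, Cd163 and Cd14) was 274 to 1145 RPKM in diabetic gastrocnemius and 347 to 1372 RPKM in control gastrocnemius, against 44.2 to 93.6 RPKM in diabetic adductor and 26.7 to 227 RPKM in control adductor, and 6 of 7 were called higher in each kind of mouse. Of all tested genes, 48.1% in diabetic and 54.4% in control mice were called higher. After median-of-ratios scaling 5 of the 7 markers were called higher and 1 lower in diabetic mice, and 6 higher and 1 lower in control mice. The highest control adductor sum, 227 RPKM, was again that of replicate 2, and the other control adductor sums reached 127 RPKM. T cell markers (Cd3e, Cd3d, Cd3g, Cd4, Cd8a and Lck) summed to 2.84 to 8.62 RPKM in diabetic gastrocnemius and 1.73 to 7.05 RPKM in control gastrocnemius, against 0.482 to 0.987 RPKM in diabetic adductor and 0.144 to 3.66 RPKM in control adductor. Control adductor replicate 5 had the highest sum of its group, 3.66 RPKM against at most 1.61 RPKM in the others. Without that library the control difference was 1.73 for Itgal and 0.84 for Itgb7, both called (limma adjusted p = 2.4e-05 and 0.045). Neutrophil markers (S100a8, S100a9, Ly6g, Csf3r, Elane, Mpo and Retnlg) summed to 3.92 to 13.2 RPKM in diabetic gastrocnemius and 2.01 to 24.01 RPKM in control gastrocnemius, against 1.798 to 10.8 RPKM in diabetic adductor and 1.59 to 14.8 RPKM in control adductor, with Elane at 0 in all diabetic adductor libraries. These sums overlapped between muscles, and 1 of the 4 tested was called higher in each kind of mouse. Dendritic cell markers (Zbtb46, Flt3, Xcr1 and Clec9a) summed to at most 3.93 RPKM in any library, and the 1 tested was not called. The part of cell numbers in the integrin differences was not tested, and in whole muscle more cells of a type cannot be told apart from more RNA per cell.

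Ratios between beta2 and its partners were taken without a test. Such ratios within a library do not depend on its scaling. Itgax over Itgam was 0.533, 0.797 and 1.46 in diabetic gastrocnemius and 0.235, 0.6097 and 0.758 in control gastrocnemius, against 0.0439, 0.246 and 0.417 in diabetic adductor and 0.02704, 0.0551 and 0.343 in control adductor. The lowest diabetic gastrocnemius ratio was above the highest diabetic adductor ratio, while the control groups overlapped. Itgax had passed the filter through gastrocnemius alone. Its lowest adductor values, down to 0.0231 RPKM, rest on few reads, so ratios built on them are imprecise. Itgam over Itgb2 was 0.472, 0.615 and 0.9796 in diabetic gastrocnemius and 0.473, 0.744 and 0.805 in control gastrocnemius, against 0.53004, 0.773 and 1.06 in diabetic adductor and 0.717, 1.14 and 1.35 in control adductor, so that ratio overlapped between muscles.

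Itgam and Itgax are neighbours on the same strand of chromosome 7. In build mm9, as in the deposited table, Itgam spans chromosome 7, 135206154 to 135262005 (plus strand) and Itgax chromosome 7, 135273082 to 135294171 (plus strand). Their promoters are shown because both genes encode partners of beta2 and were called higher in gastrocnemius. The sequences run from 250 bases before to 50 after the gene start and are from RefSeq, build GRCm38.p6 (Itgam at chr7:128062390-128062689, plus strand, Itgax at chr7:128129300-128129599, plus strand). Capitals mark GAGGAA, the core to which myeloid ETS factors such as PU.1 bind, on either strand.
Itgam: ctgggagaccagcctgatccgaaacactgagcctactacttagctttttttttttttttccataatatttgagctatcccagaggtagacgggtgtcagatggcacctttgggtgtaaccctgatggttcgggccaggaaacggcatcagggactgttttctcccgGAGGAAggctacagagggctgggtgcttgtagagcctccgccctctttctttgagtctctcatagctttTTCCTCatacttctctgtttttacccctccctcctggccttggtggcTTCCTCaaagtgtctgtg
Itgax: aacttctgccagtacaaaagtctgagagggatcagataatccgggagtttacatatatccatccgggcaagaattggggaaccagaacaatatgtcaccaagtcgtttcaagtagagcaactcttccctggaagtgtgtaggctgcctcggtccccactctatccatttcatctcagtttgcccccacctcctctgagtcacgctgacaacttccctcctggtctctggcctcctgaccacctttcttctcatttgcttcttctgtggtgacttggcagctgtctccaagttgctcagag
The motif was found 3 times in the Itgam window and 0 times in that of Itgax. It occurred in 28.3% of 32851 RefSeq promoter windows of the same length, and in 14 of the 23 integrin and laminin genes that had an entry. A match is only a match of letters. In GENCODE, 68.3% of the 31-base words of Itgam also lie in an overlapping locus, Gm49368, that is not a row of the deposited table, and 10.7% of those of Itgax occur in other genes, most in Itgad. How the authors treated reads that match several places is not given in the sources used here.

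Among the matrix integrins, 14 of 19 genes were tested, and 10 were called higher in gastrocnemius in each kind of mouse, where 48.1% of all tested genes in diabetic and 54.4% in control mice were. These were Itgb1, Itga7, Itga6, Itga3, Itga11, Itga5, Itgb3, Itga9, Itgav and Itgb5. Among them Itgb3 had passed the filter through gastrocnemius alone and so had to differ. After median-of-ratios scaling Itga3, Itga6 and Itgb5 lost their calls in both kinds of mouse, Itgav lost its call in diabetic mice, and Itgb6 was called lower in both. That left 6 of 14 higher in diabetic and 7 of 14 in control mice, where 27.4% and 28.4% of all genes were.

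Itgb1 lay at 72.2, 96.1 and 149 RPKM in diabetic gastrocnemius and 83.9, 125 and 162 RPKM in control gastrocnemius, against 34.04, 43.8 and 57.7 RPKM in diabetic adductor and 30.5, 37.8 and 45.7 RPKM in control adductor. Itgb1 spans chromosome 8, 131209554 to 131257479 (plus strand) in mm9. The beta1 subunit is shared by most matrix integrins, and Itgb1 had the highest median RPKM of the 37 genes in every group. The muscles did not overlap, with the highest adductor library at 57.7 RPKM and the lowest gastrocnemius library at 72.2 RPKM. For Itgb1 the log2 difference was 1.16 ± 0.21 in diabetic mice (limma adjusted p = 4.8e-05) and 1.701 ± 0.21 in control mice (limma adjusted p = 3.4e-07). Within the first and second sets it was 1.16 and 1.15 in diabetic mice and 1.78 and 1.62 in control mice, and after median-of-ratios scaling it was 0.48 in diabetic mice and 0.91 in control mice.

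Itga7 stood at 32.3, 49.3 and 73.1 RPKM in diabetic gastrocnemius and 31.3, 37.8 and 64.4 RPKM in control gastrocnemius, against 9.39, 13.7 and 17.8 RPKM in diabetic adductor and 6.71, 12.2 and 19.1 RPKM in control adductor. Itga7 spans chromosome 10, 128370869 to 128395340 (plus strand) in mm9. Its product alpha7 is the laminin receptor subunit of muscle fibres and myoblasts. The lowest gastrocnemius library, at 31.3 RPKM, was above the highest adductor library, at 19.1 RPKM. The difference on the log2 scale was 1.83 ± 0.24 in diabetic mice (limma adjusted p = 1.1e-06) and 1.74 ± 0.24 in control mice (limma adjusted p = 1.7e-06). Median-of-ratios scaling gave 1.16 in diabetic mice and 0.96 in control mice. Markers of satellite cells and myoblasts (Pax7, Myf5, Myod1, Myog and Cdh15) summed to 87.8 to 276 RPKM in diabetic gastrocnemius and 70.9 to 367 RPKM in control gastrocnemius, against 13.6 to 32.7 RPKM in diabetic adductor and 11.8 to 29.4 RPKM in control adductor, and all 5 were called higher in each kind of mouse. Of all tested genes, 48.1% in diabetic and 54.4% in control mice were called higher. After median-of-ratios scaling all 5 markers were still called higher in each kind of mouse, where 27.4% and 28.4% of all genes were. The part of satellite cells and myoblasts in the Itga7 values was not tested.

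Itga6 measured 5.099, 8.92 and 19.6 RPKM in diabetic gastrocnemius and 5.15, 9.55 and 19.8 RPKM in control gastrocnemius, against 2.59, 4.84 and 5.55 RPKM in diabetic adductor and 2.73, 4.34 and 6.84 RPKM in control adductor. The alpha6 subunit binds laminin with beta1 or beta4 and occurs on endothelium, Schwann cells and myoblasts. The muscles overlapped in both kinds of mouse, and the lowest gastrocnemius library of each was one of the second set. For Itga6 the log2 difference was 1.12 ± 0.34 in diabetic mice (limma adjusted p = 0.0067) and 1.195 ± 0.34 in control mice (limma adjusted p = 0.0036). Within the first and second sets it was 1.48 and 0.38 in diabetic mice and 1.52 and 0.87 in control mice, and the diabetic call was lost in the second set (limma adjusted p = 0.27). Median-of-ratios scaling ended both calls, at 0.49 in diabetic mice and 0.45 in control mice (limma adjusted p = 0.13 and 0.16).

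Itga3 had 1.55, 1.94 and 3.29 RPKM in diabetic gastrocnemius and 1.71, 2.43 and 3.51 RPKM in control gastrocnemius, against 1.09, 1.34 and 1.89 RPKM in diabetic adductor and 0.882, 1.08 and 1.6998 RPKM in control adductor. It encodes another laminin-binding alpha subunit. Control muscles did not overlap and diabetic muscles did. For Itga3 the log2 difference was 0.44 ± 0.18 in diabetic mice (limma adjusted p = 0.039) and 0.81 ± 0.18 in control mice (limma adjusted p = 3.8e-04). The diabetic call was lost when diabetic adductor replicate 1, 3, 4 or 5 or diabetic gastrocnemius replicate 3 or 4 was left out (limma adjusted p = 0.054 to 0.12). It was also lost in the second set alone (0.12, limma adjusted p = 0.71). Scaling changed its direction: median-of-ratios gave -0.09 in diabetic mice and 0.199 in control mice, neither called, and quantile normalization called it lower in diabetic mice (-0.36, limma adjusted p = 0.021). Itgb4, for the beta4 partner of alpha6, was not called. Itgb4 averaged 1.69 ± 0.804 RPKM in diabetic gastrocnemius and 1.69 ± 0.976 RPKM in control gastrocnemius, against 1.48 ± 0.763 RPKM in diabetic adductor and 1.31 ± 0.861 RPKM in control adductor (SD, n = 6 each). Its log2 difference was 0.14 ± 0.37 in diabetic and 0.29 ± 0.37 in control mice, with limma adjusted p = 0.76 and 0.5, and was below 0 after median-of-ratios scaling.

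Of 4 collagen-binding alpha subunits, Itga11 and Itga1 were tested. Itga11 lay at 1.45, 3.71 and 10.8 RPKM in diabetic gastrocnemius and 2.17, 5.07 and 10.1 RPKM in control gastrocnemius, against 0.568, 1.01 and 1.596 RPKM in diabetic adductor and 0.234, 0.817 and 2.51 RPKM in control adductor. The alpha11 subunit is carried by fibroblasts and binds fibrillar collagen. The muscles overlapped in both kinds of mouse, since gastrocnemius libraries of the second set lay lowest. For Itga11 the log2 difference was 1.58 ± 0.41 in diabetic mice (limma adjusted p = 0.0021) and 1.97 ± 0.41 in control mice (limma adjusted p = 2.2e-04). In the second set alone the diabetic difference was 0.89 and not called (limma adjusted p = 0.11). Fibroblast markers (Pdgfra, Col1a1, Col1a2, Dcn and Lum) summed to 1293 to 4206 RPKM in diabetic gastrocnemius and 1574 to 5174 RPKM in control gastrocnemius, against 205 to 379 RPKM in diabetic adductor and 164 to 723 RPKM in control adductor, and all 5 were called higher in each kind of mouse. The share of all tested genes called higher was 48.1% in diabetic and 54.4% in control mice. After median-of-ratios scaling 3 of these markers were called higher in diabetic and 4 in control mice, where 27.4% and 28.4% of all genes were. The part of fibroblasts in the Itga11 values was not tested.

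Itga1 lay at 1.42, 3.07 and 6.73 RPKM in diabetic gastrocnemius and 1.301, 3.22 and 6.77 RPKM in control gastrocnemius, against 0.776, 2.14 and 5.18 RPKM in diabetic adductor and 0.579, 1.78 and 4.08 RPKM in control adductor. The alpha1 subunit binds basement membrane collagen on vessels and other stromal cells. The groups overlapped widely, and in control mice every library of the first set was above every library of the second set of its muscle. For Itga1 the log2 difference was 0.38 ± 0.499 in diabetic mice (limma adjusted p = 0.54) and 0.72 ± 0.499 in control mice (limma adjusted p = 0.22). With the replicate number as a block the difference was called in diabetic mice (limma adjusted p = 0.022) and in control mice (limma adjusted p = 0.00024). Median-of-ratios scaling gave -0.18 in diabetic mice and 0.09 in control mice. The other collagen-binding genes were below the level for testing: Itga2 reached 0.956 RPKM and Itga10 reached 1.003 RPKM in its highest library.

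**Figure D3:**
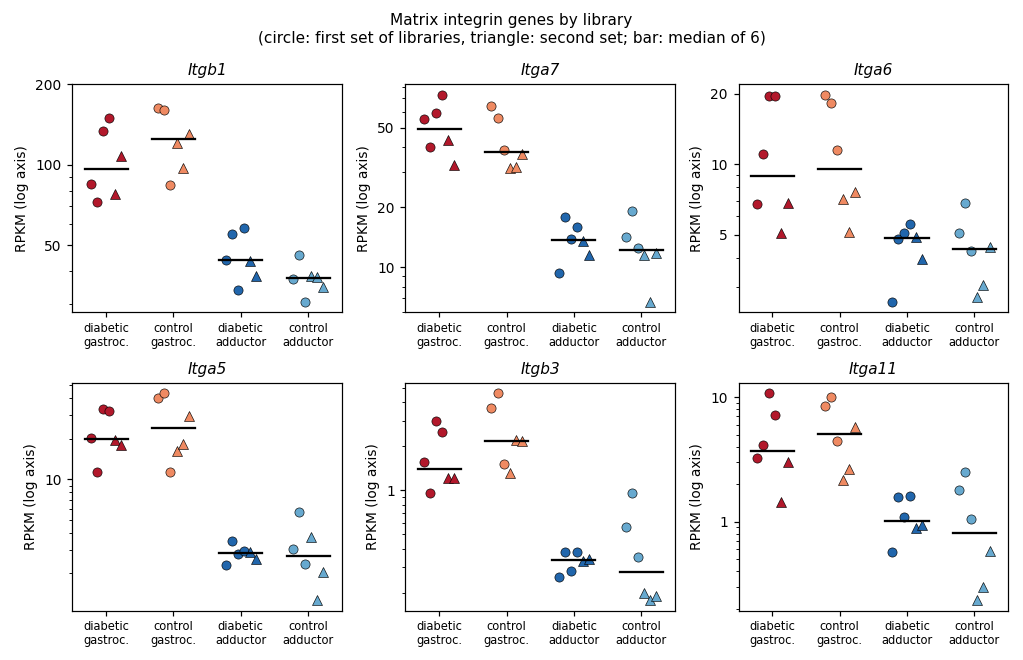
RPKM of 6 matrix integrin genes in each library (log axis), by group, with circles for the first and triangles for the second set and a bar at the median of 6. For Itga5, gastrocnemius libraries lie between 11.3 and 43.9 RPKM and adductor libraries between 1.26 and 5.72 RPKM, while for Itga6 the muscles overlap.

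The subunits that bind fibronectin, VCAM1 and RGD motifs contained the widest contrast among matrix integrins. Itga5 lay at 11.4, 19.998 and 33.2 RPKM in diabetic gastrocnemius and 11.3, 23.9 and 43.9 RPKM in control gastrocnemius, against 2.303, 2.81 and 3.47 RPKM in diabetic adductor and 1.26, 2.68 and 5.72 RPKM in control adductor. Itga5 spans chromosome 15, 103174718 to 103197179 (minus strand) in mm9. It encodes alpha5, the partner of beta1 in the fibronectin receptor. Every gastrocnemius library was at least 11.3 RPKM, and the highest adductor library, control replicate 2, was at 5.72 RPKM. For Itga5 the log2 difference was 2.71 ± 0.32 in diabetic mice (limma adjusted p = 2.7e-07) and 2.897 ± 0.32 in control mice (limma adjusted p = 9.5e-08). Median-of-ratios scaling gave 2.09 in diabetic mice and 2.16 in control mice. Itga5 also differed against Itga7 within libraries. Itga5 over Itga7 was 0.287, 0.447 and 0.5599 in diabetic gastrocnemius and 0.291, 0.602 and 0.8001 in control gastrocnemius, against 0.185, 0.206 and 0.245 in diabetic adductor and 0.173, 0.1998 and 0.326 in control adductor. The diabetic muscles did not overlap in this ratio, and the control muscles did.

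Itgb3 lay at 0.967, 1.39 and 2.97 RPKM in diabetic gastrocnemius and 1.33, 2.195 and 4.63 RPKM in control gastrocnemius, against 0.256, 0.336 and 0.379 RPKM in diabetic adductor and 0.177, 0.276 and 0.956 RPKM in control adductor. The beta3 subunit pairs with alphav on endothelium and macrophages and with alphaIIb on platelets. The muscles were separate, with the highest adductor library at 0.956 RPKM and the lowest gastrocnemius library at 0.967 RPKM. Itgb3 passed the filter through gastrocnemius alone and so had to differ. For Itgb3 the log2 difference was 1.37 ± 0.26 in diabetic mice (limma adjusted p = 8.8e-05) and 1.73 ± 0.26 in control mice (limma adjusted p = 4.2e-06). Itga2b, for alphaIIb, stayed below the level for testing and was at most 1.26 RPKM. Platelet markers (Pf4, Gp9, Gp1ba, Gp1bb and Ppbp) summed to 20.2 to 119 RPKM in diabetic gastrocnemius and 25.1 to 181 RPKM in control gastrocnemius, against 7.02 to 23.7 RPKM in diabetic adductor and 7.23 to 23.99 RPKM in control adductor, and Gp9 was at 0 in all diabetic gastrocnemius libraries. The 2 tested platelet markers were called higher in each kind of mouse, where 48.1% of all tested genes in diabetic and 54.4% in control mice were. The part of platelets in the Itgb3 values was not tested.

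Itga9 averaged 5.94 ± 1.52 RPKM in diabetic gastrocnemius and 5.503 ± 1.58 RPKM in control gastrocnemius, against 1.997 ± 0.624 RPKM in diabetic adductor and 1.66 ± 0.731 RPKM in control adductor (SD, n = 6 each). The alpha9 subunit binds tenascin-C and VCAM1. For Itga9 the log2 difference was 1.37 ± 0.24 in diabetic mice (limma adjusted p = 3.7e-05) and 1.51 ± 0.24 in control mice (limma adjusted p = 9.3e-06). Itgav had a mean of 13.6 ± 7.54 RPKM in diabetic gastrocnemius and 15.6 ± 6.75 RPKM in control gastrocnemius, against 6.02 ± 1.74 RPKM in diabetic adductor and 5.54 ± 1.14 RPKM in control adductor (SD, n = 6 each). Alphav is the common partner of several RGD-binding beta subunits. For Itgav the log2 difference was 1.004 ± 0.29 in diabetic mice (limma adjusted p = 0.0055) and 1.35 ± 0.29 in control mice (limma adjusted p = 3.7e-04). The diabetic call for Itgav ended under median-of-ratios scaling (0.36, limma adjusted p = 0.20).

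Itgb5 averaged 40.8 ± 12.97 RPKM in diabetic gastrocnemius and 35.5 ± 13.8 RPKM in control gastrocnemius, against 23.5 ± 5.51 RPKM in diabetic adductor and 17.3 ± 3.396 RPKM in control adductor (SD, n = 6 each). The beta5 subunit pairs with alphav and binds vitronectin. For Itgb5 the log2 difference was 0.76 ± 0.24 in diabetic mice (limma adjusted p = 0.011) and 0.95 ± 0.24 in control mice (limma adjusted p = 0.0017). Median-of-ratios scaling ended both calls for Itgb5, at 0.09 in diabetic mice and 0.17 in control mice. Itga4 averaged 3.26 ± 1.405 RPKM in diabetic gastrocnemius and 2.89 ± 1.22 RPKM in control gastrocnemius, against 2.08 ± 1.02 RPKM in diabetic adductor and 1.63 ± 0.561 RPKM in control adductor (SD, n = 6 each). The alpha4 subunit binds VCAM1 and fibronectin and is found on leukocytes and developing muscle. For Itga4 the log2 difference was 0.57 ± 0.3002 in diabetic mice (limma adjusted p = 0.11) and 0.65 ± 0.3002 in control mice (limma adjusted p = 0.065). With the replicate block it was called in both (limma adjusted p = 0.0097 and 0.0039).

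Itgb6 was the one tested gene with a log2 difference below 0. Itgb6 had a mean of 6.81 ± 2.55 RPKM in diabetic gastrocnemius and 6.69 ± 2.18 RPKM in control gastrocnemius, against 6.78 ± 1.72 RPKM in diabetic adductor and 6.68 ± 1.001 RPKM in control adductor (SD, n = 6 each). The beta6 subunit is known as an epithelial integrin that activates latent TGF-beta. For Itgb6 the log2 difference was -0.04 ± 0.24 in diabetic mice (limma adjusted p = 0.9) and -0.05 ± 0.24 in control mice (limma adjusted p = 0.87). After median-of-ratios scaling it was called lower, at -0.67 in diabetic mice and -0.79 in control mice (limma adjusted p = 0.0070 and 0.0019). The epithelial markers Epcam, Krt14, Krt5 and Cdh1 summed to 0.127 to 11.2 RPKM in diabetic gastrocnemius and 0.0413 to 1.87 RPKM in control gastrocnemius, against 0.0678 to 0.2103 RPKM in diabetic adductor and 0.0436 to 1.32 RPKM in control adductor, and none of the 4 was tested. The part of epithelial cells in the Itgb6 values was not tested. The other members of this class, Itga8 and Itgb8, did not reach testing and were at most 1.29 and 0.875 RPKM.

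Of the 11 laminin chains, 6 were tested. In gastrocnemius 4 were called higher in diabetic mice (Lama2, Lama4, Lamb1 and Lamc1) and 3 in control mice (the same without Lama2), where 48.1% and 54.4% of all tested genes were, so 3 of 6 in control mice was near the share of all genes. After median-of-ratios scaling 3 of 6 were called higher in each kind of mouse, where 27.4% of all genes in diabetic and 28.4% in control mice were.

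Lamb1 lay at 18.1, 27.2 and 54.6 RPKM in diabetic gastrocnemius and 22.2, 35.5 and 54.4 RPKM in control gastrocnemius, against 1.74, 3.92 and 5.69 RPKM in diabetic adductor and 2.097, 3.97 and 12.4 RPKM in control adductor. It encodes the beta1 chain, found in most basement membranes. The lowest gastrocnemius library was at 18.1 RPKM and the highest adductor library, control replicate 2, was at 12.4 RPKM. For Lamb1 the log2 difference was 2.901 ± 0.36 in diabetic mice (limma adjusted p = 4.8e-07) and 2.86 ± 0.36 in control mice (limma adjusted p = 4.7e-07). Within the first and second sets it was 3.08 and 2.54 in diabetic mice and 2.49 and 3.23 in control mice. Median-of-ratios scaling gave 2.27 in diabetic mice and 2.11 in control mice.

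Lamb2 lay at 16.8, 25.8 and 37.5 RPKM in diabetic gastrocnemius and 15.4, 22.7 and 38.5 RPKM in control gastrocnemius, against 12.9, 21.7 and 25.9 RPKM in diabetic adductor and 9.43, 23.7 and 33.7 RPKM in control adductor. The beta2 chain it encodes is enriched at the neuromuscular junction and in arterial walls. The groups overlapped, and no library of Lamb2 stood apart. For Lamb2 the log2 difference was 0.34 ± 0.32 in diabetic mice (limma adjusted p = 0.38) and 0.21 ± 0.32 in control mice (limma adjusted p = 0.59). Median-of-ratios scaling gave -0.33 in diabetic mice and -0.57 in control mice, neither called.

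The order of the 2 beta chains differed between muscles. Lamb1 over Lamb2 was 0.747, 1.28 and 1.74 in diabetic gastrocnemius and 0.781, 1.63 and 2.605 in control gastrocnemius, against 0.135, 0.1798 and 0.254 in diabetic adductor and 0.148, 0.235 and 0.368 in control adductor. All 12 adductor libraries had more Lamb2 than Lamb1, and 5 of 6 gastrocnemius libraries of each kind of mouse had more Lamb1 than Lamb2. The ratio compares RPKM, which is per length, and does not depend on library scaling.

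Lamb1 lies on chromosome 12, 31950159 to 32014504 (plus strand) and Lamb2 on chromosome 9, 108382193 to 108392861 (plus strand) in mm9. Their promoters are shown because the ratio of the pair did not overlap between muscles. The windows are from RefSeq, build GRCm38.p6 (Lamb1 at chr12:31265043-31265342, plus strand, Lamb2 at chr9:108479612-108479911, plus strand). Capitals mark GGGCGG on either strand, the GC box to which SP1 binds.
Lamb1: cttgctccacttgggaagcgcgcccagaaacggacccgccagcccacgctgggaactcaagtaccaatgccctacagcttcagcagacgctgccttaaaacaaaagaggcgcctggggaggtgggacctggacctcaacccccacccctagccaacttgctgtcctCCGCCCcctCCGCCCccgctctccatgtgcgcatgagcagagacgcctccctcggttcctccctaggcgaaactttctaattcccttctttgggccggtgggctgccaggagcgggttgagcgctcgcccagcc
Lamb2: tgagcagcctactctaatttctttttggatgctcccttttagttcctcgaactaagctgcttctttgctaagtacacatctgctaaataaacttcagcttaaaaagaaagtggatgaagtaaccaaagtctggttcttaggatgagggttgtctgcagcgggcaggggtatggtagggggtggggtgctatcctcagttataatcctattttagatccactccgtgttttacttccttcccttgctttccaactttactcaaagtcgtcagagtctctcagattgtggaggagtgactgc
The GC box was found 2 times in the Lamb1 window, both on the minus strand, and 0 times in that of Lamb2. It occurred in 35.7% of all 32851 windows and in 11 of the 23 integrin and laminin genes with an entry. TGANTCA, the AP-1 motif searched on both strands in the same windows, occurred in 3 of the 23 and in 7.81% of all windows.

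Lama4 stood at 7.18, 15.5 and 28.3 RPKM in diabetic gastrocnemius and 8.04, 16.5 and 30.6 RPKM in control gastrocnemius, against 1.59, 3.31 and 5.67 RPKM in diabetic adductor and 1.18, 2.67 and 8.54 RPKM in control adductor. Lama4 spans chromosome 10, 38685321 to 38829994 (plus strand) in mm9. The alpha4 chain belongs to the basement membrane of endothelium and other mesenchymal cells. Diabetic muscles did not overlap, and in control mice adductor replicate 2, at 8.54 RPKM, exceeded the lowest gastrocnemius library. For Lama4 the log2 difference was 2.17 ± 0.44 in diabetic mice (limma adjusted p = 1.8e-04) and 2.33 ± 0.44 in control mice (limma adjusted p = 7.0e-05). Median-of-ratios scaling gave 1.55 in diabetic mice and 1.604 in control mice. Endothelial markers (Cdh5, Pecam1, Kdr, Tek, Emcn and Tie1) summed to 89.95 to 128 RPKM in diabetic gastrocnemius and 93.1 to 161 RPKM in control gastrocnemius, against 42.6 to 78.7 RPKM in diabetic adductor and 43.7 to 72.6 RPKM in control adductor, and 4 of 6 were called higher in each kind of mouse. Of all tested genes, 48.1% in diabetic and 54.4% in control mice were called higher. After median-of-ratios scaling 0 of the 6 markers were called higher in diabetic and 1 in control mice. The shares of all genes were then 27.4% and 28.4%. The part of endothelial cells in Lama4 was not tested.

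Lama2 lay at 2.03, 9.02 and 14.2 RPKM in diabetic gastrocnemius and 2.28, 6.197 and 13.3 RPKM in control gastrocnemius, against 1.22, 2.59 and 5.48 RPKM in diabetic adductor and 0.812, 2.23 and 6.09 RPKM in control adductor. Lama2 spans chromosome 10, 26701092 to 27336748 (minus strand) in mm9. It encodes the alpha2 chain of the muscle fibre basement membrane, the chain affected in a form of congenital muscular dystrophy. The muscles overlapped, and in control mice every library of the first set was above every library of the second set of its muscle. For Lama2 the log2 difference was 1.31 ± 0.53 in diabetic mice (limma adjusted p = 0.038) and 1.19 ± 0.53 in control mice (limma adjusted p = 0.054). The diabetic call was lost without diabetic adductor replicate 1, 5 or 6 or diabetic gastrocnemius replicate 2, 3 or 4 (limma adjusted p = 0.076 to 0.094) and after median-of-ratios scaling (0.71, limma adjusted p = 0.25). With the replicate block Lama2 was called in both kinds of mouse (limma adjusted p = 3.1e-05 in diabetic and 6.4e-05 in control mice). The control difference was also called without control adductor replicate 1 or 2, control gastrocnemius replicate 4, 5 or 6, or diabetic gastrocnemius replicate 5 (limma adjusted p = 0.025 to 0.045).

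Lama4 over Lama2 was 1.397, 2.29 and 3.55 in diabetic gastrocnemius and 1.32, 3.25 and 4.35 in control gastrocnemius, against 1.03, 1.14 and 1.56 in diabetic adductor and 0.969, 1.27 and 1.64 in control adductor. The median ratio was higher in gastrocnemius, and the ranges overlapped in both kinds of mouse. Lama5 averaged 4.72 ± 2.29 RPKM in diabetic gastrocnemius and 4.20002 ± 2.43 RPKM in control gastrocnemius, against 2.92 ± 1.305 RPKM in diabetic adductor and 2.34 ± 1.33 RPKM in control adductor (SD, n = 6 each). The alpha5 chain is widespread in mature basement membranes of vessels and epithelia. For Lama5 the log2 difference was 0.58 ± 0.38 in diabetic mice (limma adjusted p = 0.2) and 0.71 ± 0.38 in control mice (limma adjusted p = 0.11). It was called with the replicate block in both (limma adjusted p = 0.0039 and 0.00085), and median-of-ratios scaling gave -0.01 in diabetic mice and 0.04 in control mice.

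Lamc1 lay at 21.6, 36.3 and 56.5 RPKM in diabetic gastrocnemius and 25.4, 40.6 and 59.5 RPKM in control gastrocnemius, against 6.97, 11.2 and 16.6 RPKM in diabetic adductor and 8.17, 10.3 and 20.9 RPKM in control adductor. Lamc1 spans chromosome 1, 155066052 to 155179916 (minus strand) in mm9. The gamma1 chain it encodes is part of nearly all laminin trimers of muscle and vessel. The muscles did not overlap, with the lowest gastrocnemius library at 21.6 RPKM and the highest adductor library at 20.9 RPKM. For Lamc1 the log2 difference was 1.63 ± 0.28 in diabetic mice (limma adjusted p = 2.9e-05) and 1.75 ± 0.28 in control mice (limma adjusted p = 1.0e-05). Within the first and second sets it was 1.77 and 1.36 in diabetic mice and 1.63 and 1.87 in control mice, and median-of-ratios scaling gave 0.97 in diabetic mice and 0.97 in control mice.

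**Figure D4:**
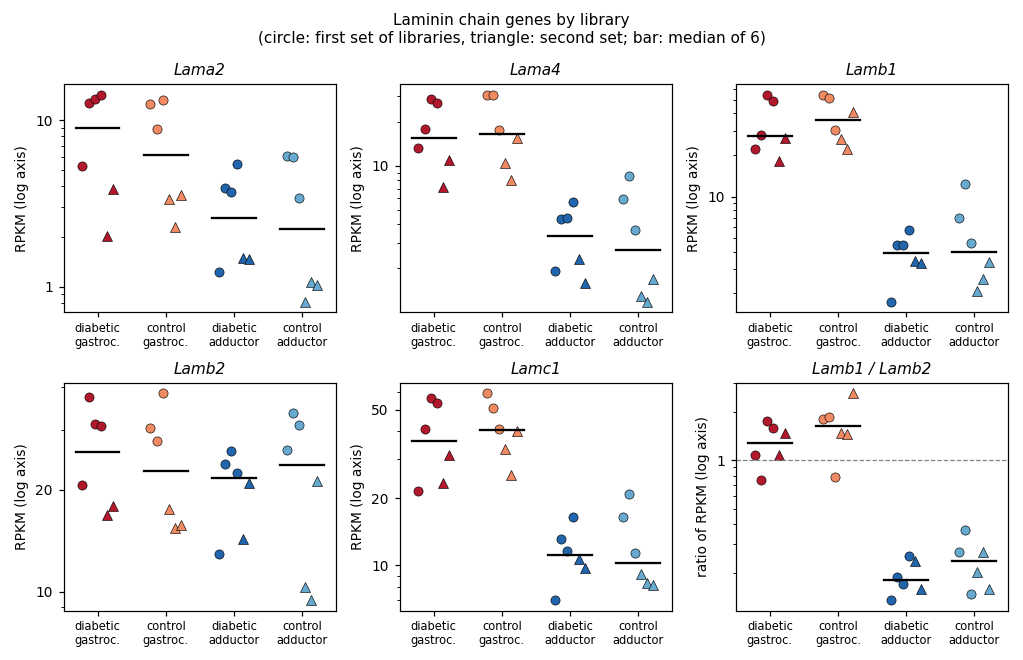
RPKM of the main laminin chain genes in each library (log axis), by group, with circles for the first and triangles for the second set and a bar at the median of 6. Lamb1 lies between 18.1 and 54.6 RPKM in gastrocnemius and between 1.74 and 12.4 RPKM in adductor, while Lamb2 overlaps between muscles.

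The epithelial chains Lama3 and Lamb3 were below the level for testing. Their highest values were 0.556 and 1.14 RPKM. Lama1, an embryonic alpha chain, reached 0.242 RPKM, and Lamc3 reached 0.374 RPKM. When every gene above 0 in at least 1 library was fitted, 21039 in all, 24 of the 37 were called higher and 0 lower in each kind of mouse, where 36.2% of genes in diabetic and 39.1% in control mice were called higher. In that fit the log2 difference of Lamb3 was 0.83 ± 0.1997 (limma adjusted p = 0.0017) in diabetic and 0.61 ± 0.1997 (limma adjusted p = 0.015) in control mice, and that of Itga10 was 0.99 ± 0.13 (limma adjusted p = 3.3e-06) in diabetic and 1.04 ± 0.13 (limma adjusted p = 1.5e-06) in control mice. Differences of such low values are reduced by the pseudocount of 0.5 RPKM added before taking logs.

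No integrin or laminin gene was called between diabetic and control mice. In gastrocnemius limma called 0 of 25, where 0.00808% of all genes were called. In adductor it called 0 of 25, where 0.0323% of all genes were called. For the difference of the diabetes effects between muscles it also called 0 of 25, where 0.0% of all genes were called. At an unadjusted p under 0.05 the counts were 0 of 25 in each of the 3 comparisons, with 1.26%, 2.74% and 1.24% of all genes in gastrocnemius, in adductor and in the difference of effects. The voom method on reads recovered from the RPKM values called 0 of 25 in each as well. For none of the 37 genes did all diabetic libraries lie above or below all control libraries in either muscle, where 0.0323% of tested genes lay above and 0.0323% below in gastrocnemius, and 0.194% above and 0.0242% below in adductor.

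The members with the smallest p-values are given although none passed. In gastrocnemius Itgb3 differed by -0.44 ± 0.26 (limma, unadjusted p = 0.1) between diabetic and control mice, Itgax by 0.47 ± 0.297 (limma, unadjusted p = 0.13) and Itgb1 by -0.28 ± 0.21 (limma, unadjusted p = 0.18) on the log2 scale. Itgax, for alphaX, had a positive difference within each set, at 0.55 in the first set and 0.23 in the second. In adductor Itgb5 differed by 0.43 ± 0.24 (limma, unadjusted p = 0.095), Itgb1 by 0.26 ± 0.21 (limma, unadjusted p = 0.22) and Itga3 by 0.199 ± 0.18 (limma, unadjusted p = 0.27). Adjusted p-values from limma were 1.0 for all of these.

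The beta1 subunit gene Itgb1 had the smallest p-value for a diabetes effect that differed between muscles. That difference was -0.54 ± 0.29 (limma, unadjusted p = 0.074) on the log2 scale, and it was -0.62 in the first set and -0.47 in the second. Itga3 followed with -0.38 ± 0.25 (limma, unadjusted p = 0.15) and Itgb3 with -0.37 ± 0.36 (limma, unadjusted p = 0.32). Each had a limma adjusted p of 1.0.

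The sets of libraries showed opposite signs for diabetes in adductor. In the first set the median difference of the 25 genes was -0.25, with 5 positive, and in the second set it was 0.29, with 25 positive. The median over all tested genes was -0.01 in the first set and 0.11 in the second. In gastrocnemius the medians of the 25 were -0.20 in the first set, with 4 positive, and -0.14 in the second, with 8 positive. No member was called within either set. Of all genes, 0.0% in gastrocnemius and 0.00808% in adductor were called higher within the first set, and 0.162% and 0.0969% within the second. In the second set each diabetic group held 2 libraries and each control group 3. The main fit had no term for the set, so its diabetes differences are partly mixed with the set. In gastrocnemius its median of the 25 was -0.03, with 11 positive, and with a set term it was -0.23, with 5 positive. In adductor these were 0.09, with 17 positive, and 0.02, with 13 positive. With the set term 0 of the 25 were called for diabetes in either muscle.

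**Figure D5:**
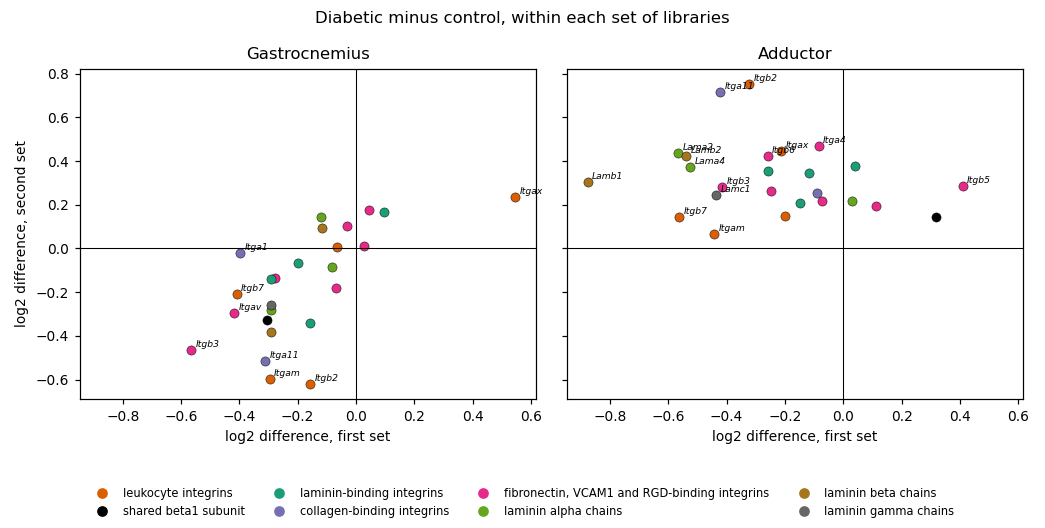
Log2 difference between diabetic and control mice for the 25 tested genes within the first set of libraries (x axis) and within the second (y axis), for gastrocnemius and adductor, coloured by role. In adductor all 25 genes lie above 0 on the y axis and 5 lie above 0 on the x axis, and none of these differences was called.

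Partner genes of integrins and laminins were counted in the same fit, in which 48.1% of all tested genes in diabetic and 54.4% in control mice were called higher, and after median-of-ratios scaling, under which 27.4% and 28.4% were. Of 9 further basement membrane genes (Nid1, Nid2, Hspg2, Agrn, Col4a1, Col4a2, Col18a1, Ntn4 and Sparc), 8 were called higher in gastrocnemius and 0 lower in each kind of mouse, and the counts were 8 and 0 after scaling too. Sparc, a matricellular protein that binds collagen IV, averaged 778 ± 255 RPKM in diabetic gastrocnemius and 976 ± 394 RPKM in control gastrocnemius, against 76.4 ± 23.2 RPKM in diabetic adductor and 93.4 ± 50.02 RPKM in control adductor (SD, n = 6 each). Its log2 difference was 3.32 ± 0.34 in diabetic mice (limma adjusted p = 4.9e-08) and 3.3996 ± 0.34 in control mice (limma adjusted p = 3.1e-08). The log2 difference of Col4a1, a chain of the collagen IV network, was 2.46 ± 0.31 in diabetic mice (limma adjusted p = 8.4e-07) and 2.18 ± 0.31 in control mice (limma adjusted p = 3.1e-06). That of its companion chain Col4a2 was 2.27 ± 0.29 in diabetic mice (limma adjusted p = 7.9e-07) and 2.04 ± 0.29 in control mice (limma adjusted p = 2.4e-06).

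Of 12 matrix ligands other than laminins and collagens, 11 were called higher and 0 lower in each kind of mouse, and after scaling 10 were higher in diabetic and 11 in control mice. The 3 with the smallest p-values were Postn, Spp1 and Tnc, which encode periostin, osteopontin and tenascin-C. Spp1 averaged 130.5 ± 80.6 RPKM in diabetic gastrocnemius and 204 ± 111 RPKM in control gastrocnemius, against 2.09 ± 0.752 RPKM in diabetic adductor and 3.096 ± 4.84 RPKM in control adductor (SD, n = 6 each), with a log2 difference of 5.39 ± 0.59 in diabetic mice (limma adjusted p = 1.2e-07) and 6.24 ± 0.59 in control mice (limma adjusted p = 2.4e-08). For Postn the log2 difference was 5.91 ± 0.63 in diabetic mice (limma adjusted p = 9.2e-08) and 6.48 ± 0.63 in control mice (limma adjusted p = 3.0e-08). For Tnc, a ligand of alpha9, it was 5.203 ± 0.64 in diabetic mice (limma adjusted p = 4.9e-07) and 5.89 ± 0.64 in control mice (limma adjusted p = 8.4e-08). Of 10 ligands of leukocyte integrins 6 were tested, and 5 were called higher and 0 lower in each kind of mouse, and after scaling 4 were higher in diabetic and 5 in control mice. One of the ligands, Cdh1, is also in the epithelial list. Vcam1, the counter-receptor of alpha4 on activated endothelium, had a log2 difference of 2.67 ± 0.28 in diabetic mice (limma adjusted p = 8.4e-08) and 2.81 ± 0.28 in control mice (limma adjusted p = 3.5e-08). Icam1, the ligand of alphaL with beta2, had 1.74 ± 0.21 in diabetic mice (limma adjusted p = 4.9e-07) and 1.91 ± 0.21 in control mice (limma adjusted p = 1.3e-07). Jam3, a junctional ligand of alphaM, had 2.18 ± 0.24 in diabetic mice (limma adjusted p = 1.6e-07) and 2.35 ± 0.24 in control mice (limma adjusted p = 5.4e-08).

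Of 23 adaptors and kinases at the inner face of integrins 21 were tested, with 14 called higher and 1 lower in diabetic mice and 15 higher and 2 lower in control mice. Median-of-ratios scaling left 9 higher and 5 lower in diabetic mice and 8 higher and 4 lower in control mice. Ilk, the scaffold that links the beta1 tail to actin, averaged 69.1 ± 20.9 RPKM in diabetic gastrocnemius and 72.95 ± 22.5 RPKM in control gastrocnemius, against 13.3 ± 1.23 RPKM in diabetic adductor and 13.6 ± 3.89 RPKM in control adductor (SD, n = 6 each). Its log2 difference was 2.28 ± 0.23 in diabetic mice (limma adjusted p = 4.0e-08) and 2.35 ± 0.23 in control mice (limma adjusted p = 2.5e-08). For Parva, its partner parvin, the difference was 1.69 ± 0.25 in diabetic mice (limma adjusted p = 4.7e-06) and 2.04 ± 0.25 in control mice (limma adjusted p = 3.3e-07). For Zyx, a protein of focal adhesions, it was 2.36 ± 0.299 in diabetic mice (limma adjusted p = 7.2e-07) and 2.396 ± 0.299 in control mice (limma adjusted p = 5.0e-07).

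The other laminin receptor of muscle, the dystroglycan and dystrophin complex, was counted as well. Of its 13 genes, all tested, 4 were called higher and 0 lower in diabetic mice, and 5 higher and 1 lower in control mice. Median-of-ratios scaling turned this balance, with 1 higher and 6 lower in each kind of mouse. The median log2 difference of the 13 was 0.24 in diabetic and 0.34 in control mice, beside 0.55 and 0.66 over all tested genes. Dag1, which encodes dystroglycan itself, averaged 91.5 ± 37.1 RPKM in diabetic gastrocnemius and 80.5 ± 29.3 RPKM in control gastrocnemius, against 45.6 ± 6.82 RPKM in diabetic adductor and 43.8 ± 12.1 RPKM in control adductor (SD, n = 6 each), with a log2 difference of 0.905 ± 0.28 in diabetic mice (limma adjusted p = 0.0072) and 0.83 ± 0.28 in control mice (limma adjusted p = 0.011). Median-of-ratios scaling ended both calls for Dag1, at 0.23 in diabetic mice and 0.04 in control mice (limma adjusted p = 0.40 and 0.89). Sgce, for epsilon-sarcoglycan, had 1.41 ± 0.196 in diabetic mice (limma adjusted p = 2.4e-06) and 1.302 ± 0.196 in control mice (limma adjusted p = 5.3e-06). Sgca, for the fibre protein alpha-sarcoglycan, had -0.52 ± 0.26 in diabetic mice (limma adjusted p = 0.099) and -0.78 ± 0.26 in control mice (limma adjusted p = 0.013), and was called lower in both after that scaling, at -1.19 in diabetic mice and -1.57 in control mice (limma adjusted p = 0.0042 and 0.00034). In the diabetes comparisons 0 genes of any of these partner lists were called.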

How the data were processed

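Poly(A) RNA of 24 muscle samples was sequenced, and 33022 transcript rows were used. The authors deposited RPKM per RefSeq transcript of mm9, computed with HOMER over exons per the file headers (the submitters' processing notes also list TopHat; no versions). Transcript length was the other deposited column used. Multiplying RPKM by length and library total gave whole reads (within 0.01) for 99.97% of values above 0. Each symbol was represented by its transcript of highest mean RPKM (48 transcripts for 37 genes).

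Genes at 1 RPKM or more in 6 or more libraries (12382) were fitted as log2(RPKM + 0.5) in limma 3.58.1 (R 4.3.3), with 4 group means and a variance trend. Benjamini-Hochberg adjustment ran over all genes within a contrast, and 0.05 was the threshold. The fit was tested on simulated data. Log2 differences are ± standard error.

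Members, lists and tests were chosen with earlier results of these data known. Every member was named, except 1 untested gene that is counted but not reported here. All 3 values per group went to genes set by role, to the 2 smallest p-values of each role in the control muscle contrast, and to no others; of each partner list the 3 smallest p-values were named. The labels do not say that samples came from separate animals, so p-values measure the spread between samples.

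Same-numbered muscles of 1 kind of mouse deviated together (r across genes 0.25 to 0.71 in diabetic and 0.55 to 0.74 in control mice, all 12 pairs above 0.1), so the replicate number was taken as a pairing, from the data and not from a stated animal. Within the library sets r ran from -0.09 to 0.63. The blocked fit called 22 of 25 in each muscle contrast.

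Promoter windows for 23 of 37 members, 26 in all, came from RefSeq tables of GRCm38.p6 and shared words from GENCODE transcripts. Alternatives are given in the closing section.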

Additional observations from a re-analysis of the deposited data

Results flagged for a closer look

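One library stood apart from its group. Itgax was at 1.39 RPKM in control adductor replicate 2, while the other 5 control adductor libraries were between 0.0231 and 0.117 RPKM, so the gap to the nearest library was 0.87 of the group's whole range, above Dixon's critical value of 0.625 for 6 samples. Over the 25 tested genes and 4 groups, 100 combinations were examined and 1 was flagged; chance flags about 1 in 20. The same library had the highest macrophage marker sum of its group, 227 RPKM against at most 127 RPKM. It also had the highest fibroblast marker sum, 723 RPKM against at most 375 RPKM. Without it the control muscle difference was 3.14 for Itgax, 3.26 for Itgb2, 2.59 for Itgam, 1.86 for Itgal and 1.09 for Itgb7 on the log2 scale. It was also larger than in the main fit for matrix genes, at 3.08 for Itga5, 3.14 for Lamb1 and 2.61 for Lama4. In that fit 19 of 25 genes were called higher, where 6666 of all 12382 tested genes were. Diabetic minus control in adductor was then 0.61 for Itgb2 and 0.401 for Itgax, with 0 of 25 called.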

How the results depend on the processing

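Counts of called members kept their side of the 1.5-fold limit under every alternative run: 35 fits of other pseudocounts (1 and 0.1), no filter, other scalings, voom, the longest transcript, a term for the library set, each set alone, the replicate block and each library left out. Leaving out 1 library gave 17 to 19 called members in diabetic mice and 17 to 20 in control mice for the muscle contrasts, and 0 for each diabetes comparison. Of the main calls, 12 of 19 in diabetic and 14 of 18 in control mice were kept under the set term, each set, the block and both scalings. The voom fit called 7066 genes in the diabetic and 7839 in the control muscle contrast, with the same counts of members, 19 and 18. No member was called for diabetes in any setting. Between same-numbered control and diabetic libraries of a muscle r ran from -0.66 to 0.82, so these numbers were not read as pairs. The replicate block nevertheless joined same-numbered libraries of both kinds of mouse in the diabetes comparison of each muscle. It called 0 members there.

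Signs of the muscle difference changed for 8 genes. Median-of-ratios scaling gave, in diabetic mice, -0.18 for Itga1, -0.090 for Itga3, -0.36 for Itgb4, -0.0077 for Lama5 and -0.33 for Lamb2, and in control mice -0.27 for Itgb4 and -0.57 for Lamb2. Quantile normalization gave, in diabetic mice, -0.40 for Itga1, -0.36 for Itga3, -0.21 for Itga4, -0.68 for Itgb4, -0.13 for Lama5 and -0.075 for Lamb2. It gave, in control mice, -0.20 for Itga1, -0.10 for Itga3, -0.27 for Itga4, -0.65 for Itgb4, -0.031 for Itgb7, -0.17 for Lama5 and -0.34 for Lamb2. Of these, Itga3 and Itgb4 in diabetic mice were called lower under quantile normalization (limma adjusted p = 0.021 and 0.049). Itgb6 was positive with the set term (0.25 in diabetic and 0.39 in control mice) and in the first set alone (0.39 and 0.20). In the second set alone it was called lower in diabetic mice (-0.90, limma adjusted p = 0.039). Quantile normalization called it lower in both, at -0.63 in diabetic and -0.77 in control mice (limma adjusted p = 0.012 and 0.0028). When 1 library was left out, Itgb6 ran from -0.16 to 0.12 in diabetic and from -0.15 to 0.10 in control mice. The cause was not tested. Itga4 was called in diabetic mice without diabetic adductor replicate 3 (limma adjusted p = 0.047), and in control mice without diabetic adductor replicate 1 (0.037) or control gastrocnemius replicate 5 (0.040). The 12 untested members were left out by the filter of 1 RPKM in 6 libraries. As a guide to depth, 3 reads of a 1 kb transcript equal 0.192 RPKM in the deepest and 0.421 RPKM in the shallowest library, counting error only. The transcripts of these members run from 3095 bases (Itgb8) to 10341 bases (Lama3), so for them 3 reads equal a lower RPKM.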
